A study of Danio rerio with 3 samples.

Results

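Apolipoproteins are the protein components of the particles that carry lipid in blood and between tissues. The genes described here are apoa1a, apoa1b, apoa2, apoba, apobb.1, apoc1, apoea, apoeb and apom, measured in whole zebrafish (Danio rerio) larvae after exposure to shoreline oil emulsion. They are taken as a named family, by gene symbol and with no threshold on their values, although the family was chosen with earlier results of these data known. Of the 9 genes, 8 had a probe set under their own single symbol, of 8793 genes named on the array, and they account for 9 of its 15617 probe sets. For apoa1b no probe set carried that single symbol, so it has no value here. A probe set combines several short probes against a transcript into a single value.

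Apolipoprotein B is the structural protein of chylomicrons and very low density lipoprotein and stays with its particle until the particle is cleared. Apolipoproteins A-I, A-II and M belong mainly to high density lipoprotein, while the smaller exchangeable apolipoproteins C and E move between particles, and apolipoprotein E is a ligand for receptors of the LDL receptor family. In zebrafish these genes are active in the yolk syncytial layer, which packages yolk lipid, and later in liver and intestine. The gene apoeb is also known as a transcript of larval microglia.

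All larvae were collected for RNA at 192 h post-fertilization (hpf). The early-window group had been in a cup coated with 250 mg of Gulfport oil emulsion from 0 to 48 hpf and then in clean medium for 144 h. The late-window group had been exposed in the same way from 48 to 96 hpf and then kept in clean medium for 96 h. The stage at exposure and the time in clean medium thus differ together between the windows and cannot be told apart. The control group had medium without emulsion, and each cup held 30 embryos in 100 ml. The emulsion itself was a mixture of alkanes and polynuclear aromatic hydrocarbons with sand and seawater. The sources used here give neither the strain nor how many larvae each RNA sample came from.

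There was 1 array for each group, hence no spread between replicates and no test or p-value. Values are log2 expression levels as deposited, and a difference is always 1 array minus another on that log2 scale. As a technical yardstick, 718 genes with several bright probe sets were used. Their probe sets scattered around the mean difference of the gene with an SD of 0.11 for the early window against control, 0.16 for the late window against control and 0.13 between the windows. This within-gene SD leaves out the spread between clutches and between RNA samples. Over the 5492 genes whose highest value reached 7.21, the median of all deposited values, the median difference was -0.0012 for the early window, -0.02 for the late window and -0.01 for late minus early. Against control, the 18 spike-in control probe sets (BioB, BioC, BioDn and Cre) differed on average by -0.50 in the early window and by 0.0092 in the late window. Whether these controls follow the amount of larval RNA was not tested. Scaled on them, every early-window difference would therefore lie 0.50 higher, and the directions below are relative to the other genes on each array. In whole larvae, fewer cells of a type and less RNA per cell cannot be told apart.

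All 8 genes were above the filter at 7.21, as were 8 of the 9 probe sets, the exception being the dimmer probe set of apoba. On the control array, 0.0768% of all probe sets were brighter than that of apoa2 and 0.237% were brighter than that of apoa1a. The corresponding share was between 1.55% and 1.61% for apobb.1, apoc1, apoea and apoeb, 3.18% for apom and 7.89% for the brighter probe set of apoba. These shares rank probe signals and not amounts of transcript, since probe sets differ in how strongly they bind. The highest value of any probe set was between 15.41 and 15.47 on the 3 arrays, and whether the readings of apoa1a and apoa2 were compressed near that end was not tested.

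**Figure D1:**
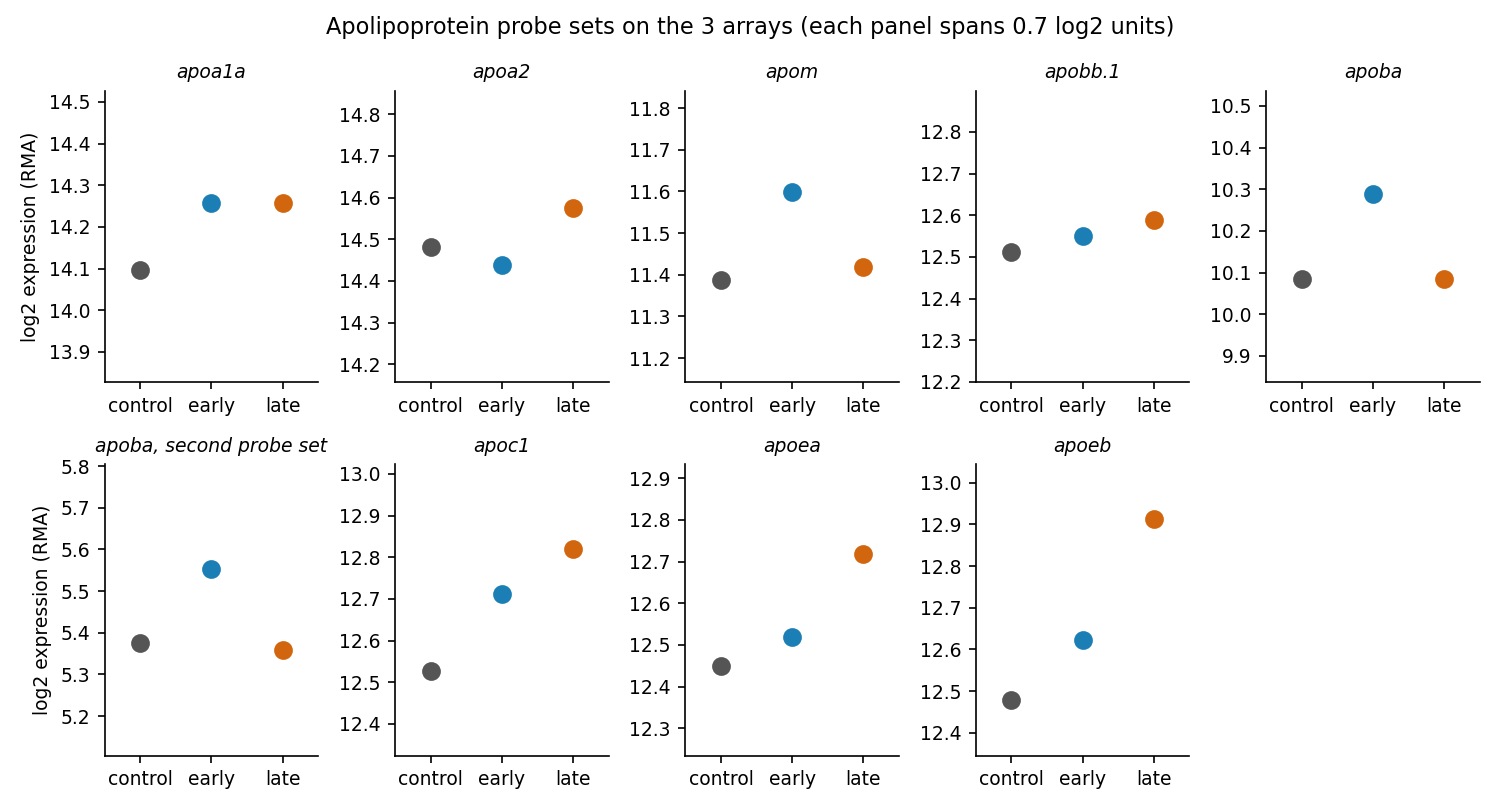
Log2 expression (y axis) of the 9 apolipoprotein probe sets on the control, early-window and late-window arrays (x axis), 1 point per array and 1 panel per probe set, all panels with an equal y span and no error bar because each group has 1 array. The late-window point is the highest for apoa2, apobb.1, apoc1, apoea and apoeb, and the early-window point for apom and for both probe sets of apoba.

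The genes of apolipoprotein E and C-I were highest on the late-window array. The transcript of apoeb, 1 of the 2 zebrafish genes for apolipoprotein E, read 12.48 in control larvae, 12.62 after the early window and 12.91 after the late window. Both exposed arrays were above control, and the late window was also above the early window. The late-window difference of 0.43, or 1.35-fold, was the farthest from control among the 8 genes and 2.65 times the within-gene SD. Of all 5492 genes, 2.55% were at least as high on the late-window array against control. The early-window difference was 0.15 (1.31 times its within-gene SD), and late minus early was 0.29.

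The other apolipoprotein E gene, apoea, read 12.45 in control larvae, 12.52 after the early window and 12.72 after the late window. The early-window reading lay close to control, and the late-window reading stood above both. The differences from control were 0.07 (early) and 0.27 (late), which is 0.624 and 1.64 times the within-gene SD. Late minus early was 0.20. Of all genes, 7.54% were at least as high in the late window.

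For apoc1, a small exchangeable apolipoprotein that in mammals inhibits lipoprotein lipase, the values were 12.53 in control larvae, 12.71 after the early window and 12.82 after the late window. Both exposed arrays were above control. The late-window difference was 0.29 (1.23-fold), with 6.21% of genes at least as high, and the early-window difference was 0.19, with 9.12%. The gap of 0.11 between the exposed arrays was smaller than the within-gene SD.

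The genes of high density lipoprotein did not share a single pattern. The transcript of apoa1a, which encodes apolipoprotein A-I, the main protein of that particle, read 14.10 on the control array and 14.26 on each exposed array. Its difference of 0.16 from control was 1.44 times the within-gene SD in the early window and 0.979 times in the late window. For apoa2, the gene of apolipoprotein A-II, control read 14.48, the early window 14.44 and the late window 14.58. It alone of the 8 genes read below control in the early window, by a difference of -0.04 that is under the within-gene SD, as is its late-window difference of 0.09. Its late-minus-early difference of 0.14 was 1.03 times the within-gene SD.

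The transcript of apom, the carrier of sphingosine 1-phosphate on high density lipoprotein, read 11.39 in control larvae, 11.60 after the early window and 11.42 after the late window. The early-window array stood apart, and the other arrays lay close together. The early-window difference of 0.21 (1.16-fold) was the highest among the 8 genes in that window and 1.89 times the within-gene SD, with 7.12% of all genes at least as high. The late-window difference was 0.03, and late minus early was -0.18.

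The apolipoprotein B genes also differed from each other. The brighter probe set of apoba read 10.09 in control larvae, 10.29 after the early window and 10.08 after the late window. Its dimmer probe set, below the filter, read 5.37, 5.55 and 5.36 in the same order. Both probe sets were highest on the early-window array, with differences from control of 0.20 and 0.18, and lay next to control on the late-window array. The late-window differences of -0.00060 and -0.02 have no settled sign, since that of the brighter probe set was 0.04 after a second quantile normalization and 0.04 after a loess correction. The late-minus-early differences were -0.20 and -0.19. For apobb.1 the control array read 12.51, the early-window array 12.55 and the late-window array 12.59. Its differences from control, 0.04 and 0.08, were both under the within-gene SD.

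**Figure D2:**
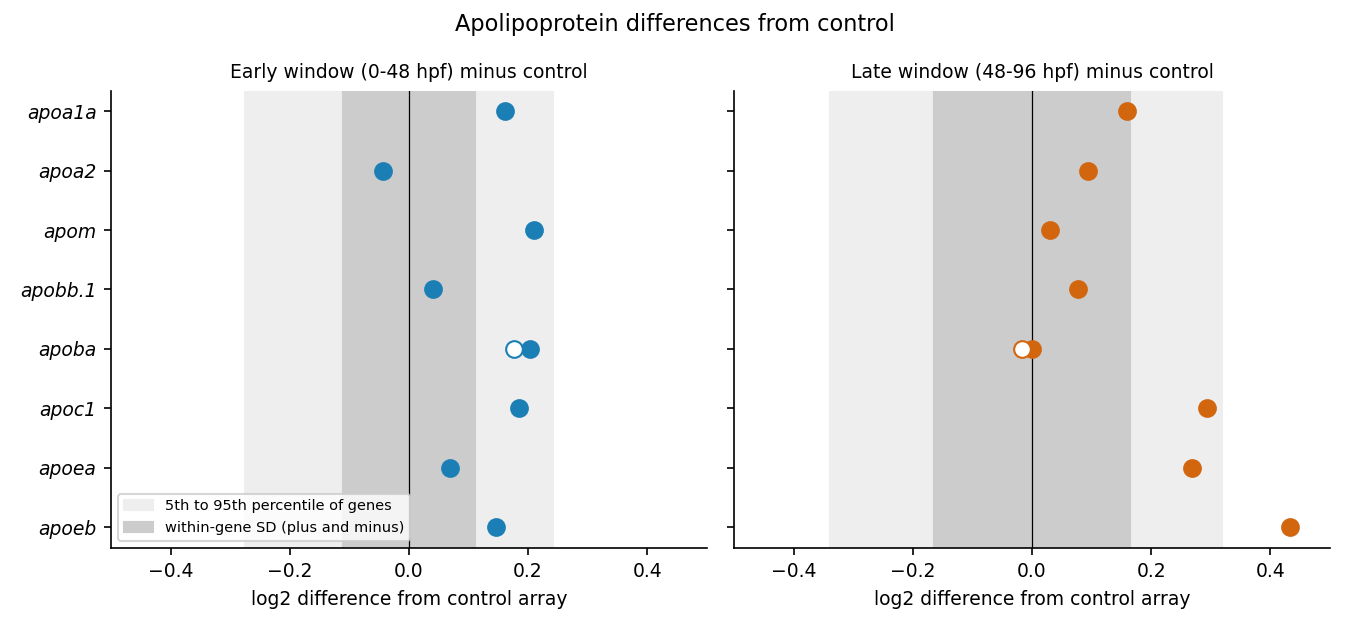
Log2 difference from the control array (x axis) for each apolipoprotein gene (y axis) on the early-window and late-window arrays; filled points are the probe set used for the gene, open points the dimmer probe set of apoba. The dark band is plus and minus 1 within-gene SD (0.11 and 0.16) and the light band runs from the 5th to the 95th percentile of 5492 genes; apoeb in the late window is the only point outside the light band.

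No apolipoprotein gene was 1.5-fold or more away from control. On the early-window array, 0 of 8 genes were at least 1.5-fold higher and 0 of 8 at least 1.5-fold lower, where 0.401% and 0.601% of all genes were. On the late-window array the counts were again 0 and 0 of 8, beside 1.11% and 0.674% of all genes. Between the windows they were 0 and 0 of 8, beside 1.22% of genes higher and 0.528% lower in the late window. With so few genes past 1.5-fold on the whole array, a count of 0 among 8 is near the background.

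At 1.2-fold, 3 of 8 genes were higher after the late window than in control, namely apoc1, apoea and apoeb, beside 7.68% of all genes, and 0 were lower, beside 9.2%. In the early window 0 of 8 were 1.2-fold higher and 0 lower, beside 3.99% and 5.43%. Late minus early, only apoeb passed 1.2-fold among the 8 genes (1.22-fold higher), beside 6.83% of genes in each direction. Restricted to the 925 genes at least as bright on average as apoba, 6.38% were 1.2-fold higher on the late-window array against control.

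The sign of the differences was mostly positive. In the early window 7 of 8 genes were above control, beside 49.6% of all genes, and 1 was below, beside 50.4%, with a median of 0.15 against -0.0012 for all genes and a range from -0.04 to 0.21. In the late window 7 of 8 were above control, beside 45.4% of genes, and 1 was below, beside 54.6%, with a median of 0.13 against -0.02 and a range from -0.00060 to 0.43. Both counts use the same control array and are not independent of each other. Beyond 1 within-gene SD, 5 of 8 genes were higher in the early window (apoa1a, apoba, apoc1, apoeb and apom), beside 20% of genes, and 0 were lower, beside 22.5%. In the late window 3 of 8 were higher (apoc1, apoea and apoeb), beside 15.3%, and 0 lower, beside 21%.

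Between the exposed arrays, with no use of control, 5 of 8 genes were higher in the late window, beside 46.3% of all genes, and 3 were lower, beside 53.7%. The median late-minus-early difference was 0.07 against -0.01 for all genes. The genes higher by more than the within-gene SD were apoa2, apoea and apoeb, 3 of 8 beside 18.4% of genes. Those lower by more than it were apoba and apom, 2 of 8 beside 21.7%. On a spike-in scale these late-minus-early differences would all fall by 0.51, and each of the 8 genes would then read lower on the late-window array.

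In the RefSeq annotation of the GRCz12tu assembly, apoeb, apoc1 and apoa2 lie in a run of 8 apolipoprotein genes in the order apoa4b.1, apoa4b.3, apoa4b.2, apoeb, apoc1, apoc4, apoa2 and apoc2. Neighbouring genes of the run are no more than 2 places apart among protein-coding genes. Of the 8 genes, 7 had a probe set and 6 were past the filter. The remaining measured gene, apoc4, was dim, at 5.56 on the control array, with differences from control of 0.17 (early) and 0.44 (late).

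In the run, apoa4b.1, an apolipoprotein A-IV gene of the intestine, read 12.17 in control larvae, 12.10 after the early window and 12.24 after the late window. Its relative apoa4b.2 read 13.07, 13.01 and 13.19 in that order, and apoc2, the cofactor of lipoprotein lipase, read 12.61, 12.69 and 12.76. All 6 genes past the filter were highest on the late-window array. All 6 were thus above control in the late window, beside 45.4% of all genes. The run was traced outward from apoeb, the described gene farthest from control in these same values. It also holds apoc1 and apoa2, which were already counted with apoeb above. Counts over the run are therefore not independent of those results. Their late-window differences from control ran from 0.07 for apoa4b.1 to 0.43 for apoeb, with a median of 0.13. In the early window 3 of the 6 were above control, beside 49.6% of all genes, and the range was -0.07 to 0.19. Late minus early, all 6 were above 0 (0.07 to 0.29), beside 46.3% of all genes, a direction that turns on the spike-in scale. The probe sets of apoa4b.2 differed in size, with differences from control of -0.07 and -0.24 in the early window and 0.11 and 0.46 in the late window. Late minus early they gave 0.18 and 0.70. The ranges above use its brighter probe set, and the dimmer one lies outside each of them. How far the closely related A-IV transcripts share probes was not tested. Outside this run, apoea has another A-IV gene, apoa4a, beside it, which read 8.21, 8.22 and 8.32 on the 3 arrays in the same order.

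**Figure D3:**
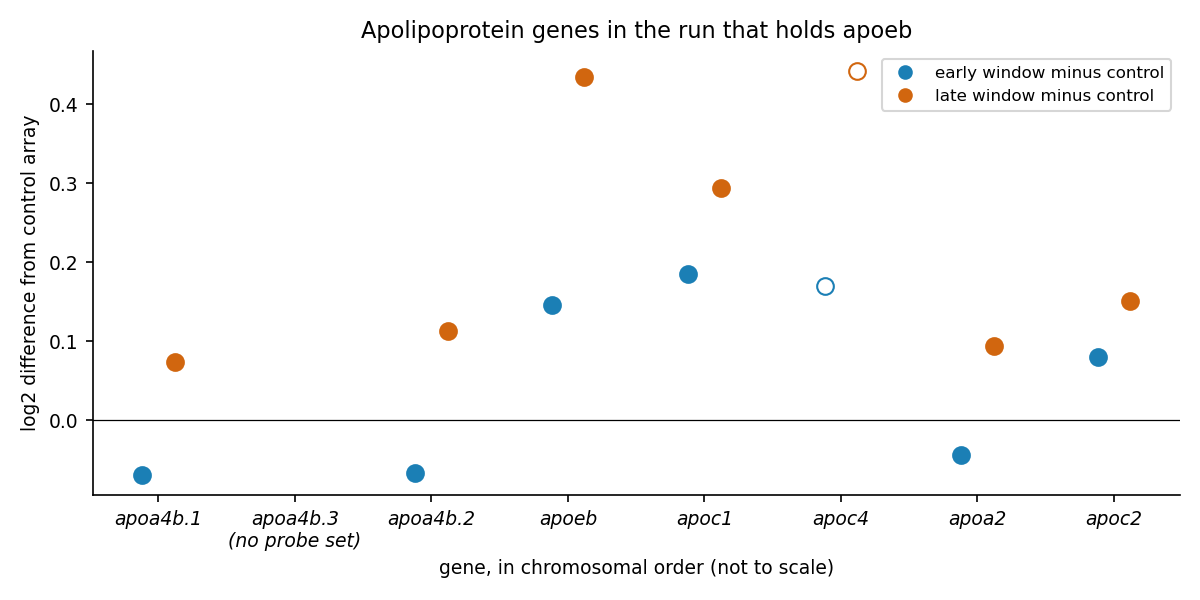
Log2 difference from the control array (y axis) of the apolipoprotein genes around apoeb in chromosomal order (x axis, not to scale), with 1 point per exposed array; open points mark apoc4, below the filter, and apoa4b.3 has no probe set. The late-window point lies above the early-window point for every gene shown, by 0.07 to 0.29.

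The other genes called apolipoproteins were more widely spread. Of 17 listed, 11 had a probe set and 9 were past the filter, with medians of 0.06 (early) and 0.11 (late). The lipocalin gene apoda.2 (apolipoprotein D) read 12.26 in control larvae, 11.73 after the early window and 12.09 after the late window. Its early-window difference of -0.53 was the lowest among all apolipoprotein genes measured here. The related apodb went the other way, with 8.81, 9.11 and 9.27 on the same arrays and a late-window difference of 0.47. The transcript of apol1 read 7.39, 7.53 and 7.80, and that of clu, clusterin or apolipoprotein J, read 8.82, 9.01 and 8.82. At 1.2-fold in the late window 2 of these 9 genes were higher and 0 lower, beside 7.68% and 9.2% of all genes.

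Few of the genes listed under lipoprotein assembly were measured, 5 of 15, and 4 were past the filter. The microsomal triglyceride transfer protein gene mttp, whose product loads lipid onto apolipoprotein B, read 7.79 in control larvae, 7.59 after the early window and 7.61 after the late window. The early and late differences were -0.39 and -0.23 for mogat2, a monoacylglycerol acyltransferase of fat absorption, and -0.49 and -0.36 for pdia2, a protein disulfide isomerase. For sar1b, which drives export of chylomicrons from the endoplasmic reticulum, they were 0.02 and 0.22. The medians of the 4 genes, -0.30 and -0.20, thus lay below those of the apolipoproteins in both windows. In the early window mogat2 and pdia2 were 1.2-fold lower, 2 of 4 beside 5.43% of all genes. Whether pdia2 takes part in lipoprotein assembly in these larvae was not tested.

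Among 21 listed receptors and uptake genes, 8 had a probe set and 6 were past the filter, with medians of -0.03 (early) and -0.25 (late). Over all 8 measured genes the medians were -0.02 and -0.05, with 4 above and 4 below control in each window. The late-window readings were lower than control for lrp1aa and vldlr, genes of receptors that bind apolipoprotein E, and for lrpap1, the gene of their chaperone. Their late differences of -0.35, -0.30 and -0.31 were the 3 of 6 past 1.2-fold lower, beside 9.2% of all genes. The high density lipoprotein receptor gene scarb1 went the other way, with 7.93 in control larvae, 8.20 after the early window and 8.43 after the late window. Its other probe set gave smaller differences, 0.21 and 0.32 against 0.27 and 0.50. For npc1, which exports cholesterol from lysosomes, the differences were 0.34 and 0.16. The receptor genes lrp1ab and lrp8, both below the filter, also read above control in the late window, by 0.16 and 0.09.

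Of 12 lipases and plasma factors, 3 had a probe set. Endothelial lipase, lipg, which acts on high density lipoprotein, read 8.09 on the control array and 8.59 on each exposed array. The gene of angptl4, an inhibitor of lipoprotein lipase, read 10.20 on the control array and differed from it by -0.07 (early) and -0.20 (late). Of 8 cholesterol export transporters only abca7 had a probe set, and it was below the filter. Of 22 regulators 10 were measured and 5 passed the filter, with medians of -0.07 and 0.06. The nuclear receptor gene nr0b2a, a repressor in bile acid and lipid metabolism, had the farthest late-window difference of the 5, -0.38, and -0.39 on its other probe set. The liver regulator hnf4a differed by -0.12 and 0.04, the oxysterol receptor nr1h3 by -0.05 and 0.06, and foxa2 by -0.07 and 0.12, in the early and late windows.

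**Figure D4:**
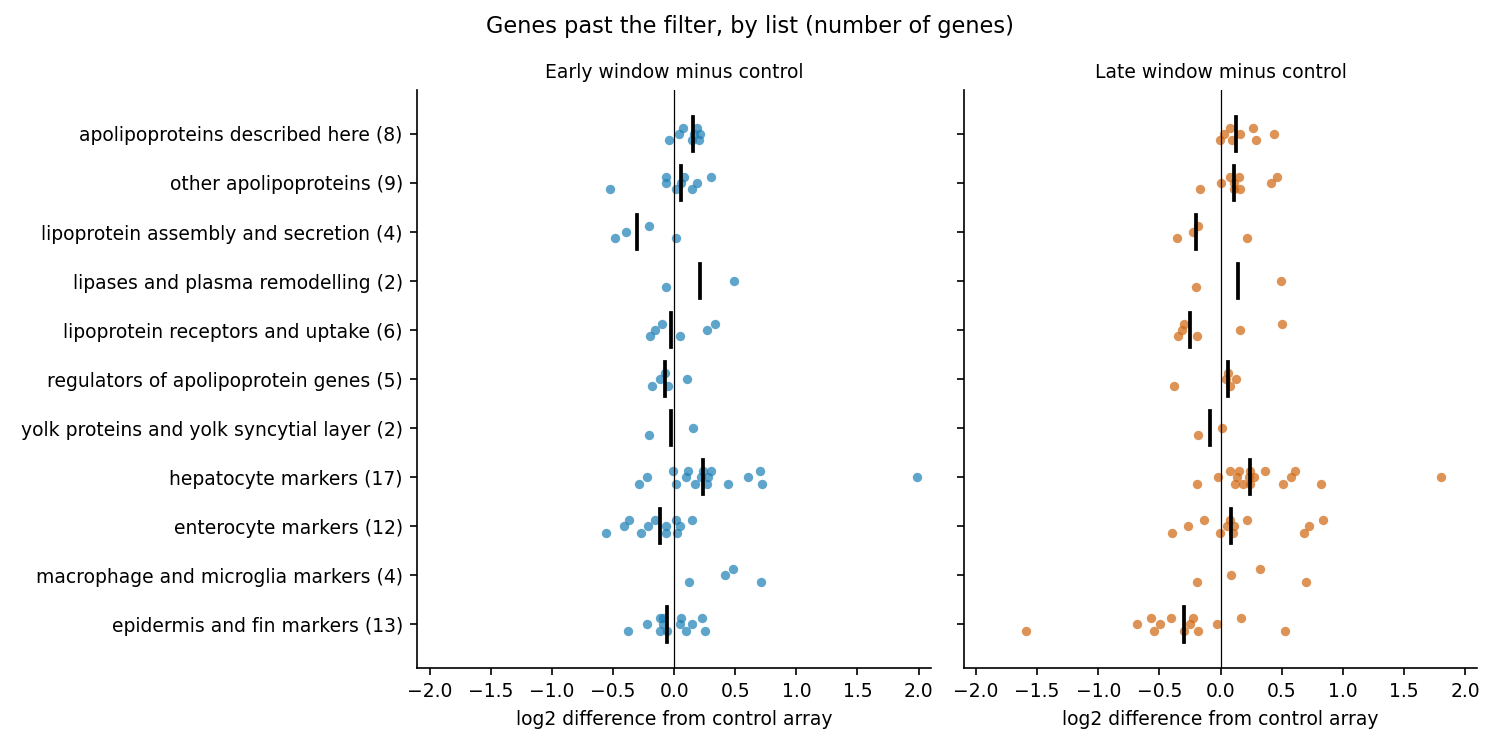
Log2 difference from the control array (x axis) of each gene past the filter (points) in the apolipoprotein, lipid transport and cell marker lists (y axis, with the number of genes), for both exposure windows; the black bar is the median of the genes shown, left out for the macrophage and microglia list. The apolipoproteins described here lie between -0.04 and 0.21 in the early window and between -0.00060 and 0.43 in the late window, a narrower span than the 17 hepatocyte markers. Those markers include hpxa, which passed the filter only through the exposed arrays.

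Hepatocyte markers, like the apolipoproteins, read mostly above control. Of 22 listed, 17 had a probe set and all 17 were past the filter, with medians of 0.24 in each window. Above control were 14 (early) and 15 (late), beside 49.6% and 45.4% of all genes. Their summed linear signal was 39762 in control larvae, 45286 after the early window and 47761 after the late window. That of the 8 apolipoprotein genes was 67214, 71035 and 75659 in the same order. The sums weight bright probe sets, so a few genes carry much of each change. In the late window fabp10a, the liver fatty acid-binding protein gene, and cyp3a65, a cytochrome P450 gene, added 2658 and 2014 to the hepatocyte sum. In the early window fgg, fgb and rbp4 added 1258, 1020 and 1014. To the apolipoprotein sum, apoa1a added 2063 (early) and 2061 (late), and apoeb added 2002 in the late window. The early-window change of apoa2 was -684. Late minus early, 9 of the 17 markers were higher and 8 lower, near the 46.3% and 53.7% of all genes. These differences ran from -1.41 for hpxa to 1.81 for cyp3a65. The early and late differences were 1.99 and 0.58 for hpxa, the hemopexin gene, which passed the filter only through the exposed arrays. The medians, the sums and the counts above control of the 17 markers all include hpxa, which the filter favours for being high after exposure. The fibrinogen genes fga, fgb and fgg differed by 0.71, 0.72 and 0.60 in the early window and by 0.24, 0.23 and 0.18 in the late window. The corresponding values were 0.24 and 0.82 for fabp10a, 0.12 and 0.12 for the retinol carrier rbp4, and 0.02 and -0.02 for the transferrin gene tfa. Not every marker rose: tdo2a read below control in both windows (-0.29 and -0.19). The marker fetub was lower in the early window and higher in the late window (-0.22 and 0.27). The part of liver content in the apolipoprotein differences was not tested.

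Enterocyte markers, of which 14 of 17 were measured and 12 passed the filter, had medians of -0.11 (early) and 0.09 (late). Their summed signal was 28532, 26682 and 31247 on the control, early-window and late-window arrays, and 2 of the 12 were the A-IV genes apoa4a and apoa4b.1. In the late window fabp6 and chia.2 added 1540 and 1078 to that sum, and the change of rbp2a was -885. Against control, 8 of the 12 were higher in the late window and 4 lower, beside 45.4% and 54.6% of all genes. Late minus early, 11 of the 12 were higher, beside 46.3% of all genes, with a median of 0.13. Of these, fabp6, chia.2, slc10a2 and mep1a.1 were at least 1.5-fold higher, 4 of 12 beside 1.22% of genes. For mep1a.1 the differences from control were -0.37 (early) and 0.22 (late). Other markers went the other way: rbp2a (-0.41 and -0.39) and vil1 (-0.27 and -0.26) read below control in both windows. Late minus early, cdh17 was lower (-0.18). In the early window 4 of the 12 were at least 1.2-fold lower than control, beside 5.43% of all genes, and 0 were higher, beside 3.99%. The run of genes around apoeb, which shares apoa4b.1 with this list, was also higher late minus early. On the spike-in scale every late-minus-early difference would fall by 0.51, and the direction for the run and for the enterocyte median would turn. Of the 12 enterocyte markers, only fabp6, chia.1, chia.2, mep1a.1 and slc10a2 would then still read higher late minus early. Of 17 macrophage and microglia markers 11 were measured and 4 passed the filter. Of the 4, coro1a and ctss2.1 passed only through the exposed arrays, so no median or summed signal over the 4 is given. Over all 11 measured markers, of which 7 were below the filter, the medians were 0.08 (early) and 0.07 (late). In each window 7 of 11 were above control. The shares above control of 49.6% (early) and 45.4% (late) given before cover only genes past the filter, unlike most of these markers. Over all 8793 genes with no filter, the median differences were -0.0027 (early) and 0.0089 (late). The defining markers csf1ra, marco and spi1b were under the filter on all 3 arrays. Yolk markers had 8 of 14 measured genes and 2 past the filter, slc40a1 and mttp, of which mttp is also in the assembly list. The summed signals of these 2 genes were 736, 766 and 714. The vitellogenin genes vtg2, vtg3 and vtg4, and also gata6 and mxtx2, were under the filter on all arrays. The sum therefore holds no vitellogenin signal and is not a measure of yolk content. Epidermal and fin markers, 13 of 15 measured and all 13 past the filter, had medians of -0.06 and -0.30 and summed signals of 51706, 51274 and 40380. The part of these cell types in the apolipoprotein differences was not tested.

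Among 5255 other genes past the filter, clone names left out, those with early and late differences nearest to apoeb by Euclidean distance were pgrmc1, ap5m1, gnrh3, ccl44 and aoc2, at distances from 0.00789 to 0.02. For pgrmc1, a heme-binding membrane protein, the differences were 0.14 and 0.44. The measure rests on 2 differences from 3 arrays.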

How the data were processed

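RNA of whole larvae was hybridised to Affymetrix zebrafish arrays, 1 per group. The deposited values are log2 expression values of 15617 probe sets, which the authors made with robust multi-array average (RMA), per the submitters' processing notes. RMA corrects background, puts arrays on a common distribution and summarises probes, which makes a shift shared by all genes invisible. The software that ran it is not named in the sources used here.

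Symbols came from the platform annotation dated 2016, updated by Entrez gene ID through a RefSeq table (GRCz12tu); 10802 probe sets had 1 symbol, 135 several and 4680 none. The brightest probe set stood for a gene, and genes were kept when the highest of 3 values reached 7.21. Differences, medians and counts at 1.5-fold were computed with Python 3.11.15, pandas 2.3.3 and statsmodels 0.14.6 (loess, span 0.3). The counting was checked on simulated data. All 8 genes, up to 4 genes per pathway list with the largest differences, and the 5 genes nearest the most changed member were named by rule. Single marker genes, and genes that complete a count or a list (vldlr, lrp1ab, lrp8, apoa4a, apoa4b.1, apoa4b.2, apoc2, apoc4, abca7), were chosen after their values were seen. Members and lists were chosen with earlier results of these data known.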

Additional observations from a re-analysis of the deposited data

Results flagged for a closer look

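The windows gave opposite signs against control for apoa2 (-0.04 early, 0.09 late; late minus early 0.14) and for apoba (0.20 early, -0.00060 late; late minus early -0.20). Each group is 1 array, so neither difference was tested, and the late-window sign of apoba turned under a second quantile normalization and a loess correction.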

How the results depend on the processing

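With 1 array per group, no replicate could be left out. No paired analysis was possible because each group has 1 array and no test was made. Scaling on spike-ins moved the median of the 8 genes to 0.65 in the early window against control, with 5 genes at least 1.5-fold higher, and to -0.44 for late minus early, with 2 genes at least 1.5-fold lower. The median of all genes moved to 0.50 and -0.52 in those comparisons, since this scaling adds a constant to every gene. At a 1.2-fold threshold the late-window count of higher genes was 3, and the late-minus-early count 1. Under median centring, quantile normalization and loess, the medians moved by less than the within-gene SD and the counts at 1.5-fold stayed at 0. Leaving out cross-hybridising probe sets, using no filter or filtering at the 75th percentile could not change these results, since each kept the same probe sets of the 8 genes. The probe-set mean could change only apoba, the only gene of the 8 with a second probe set, and it left the medians as they were. For single genes, 16 of 24 differences moved by more than that SD on the spike-in scale and 6 changed sign; 2 changed sign under loess and 1 under quantile normalization, and the largest shift under these last settings was 0.04.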
